A study of Canis lupus familiaris with 48 samples.

Results

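In MDCK I cells, 222 of the 32704 genes in the count table were lowered by urea while their NaCl and raffinose means stayed within a set window around control. Members were chosen on measured values: a control mean of at least 2 counts per M reads (CPM, where M is mega), a urea to control ratio of at most 0.55, NaCl to control and raffinose to control ratios that both lay between 0.67 and 1.5, and a NaCl to raffinose ratio between 0.625 and 1.6. Ratios were taken on group mean CPM plus 0.1, with CPM computed from each library's whole count total, and mitochondrial genes were left out. All contrasts between groups were therefore used in the choice, and the values below that compare groups describe the members without testing them. The measures that the choice did not use are the course over cell passage, the joint variation of replicate libraries, and the structure and position of the genes.

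MDCK I is an established epithelial cell line from dog kidney. The 4 groups had 12 libraries each, and every library was a culture of 144 h whose medium was changed for the last 24 h. The urea, NaCl and raffinose groups received 200 mOsm of the named solute, to 500 mOsm in all, and the control group stayed at 300 mOsm. All groups share the cell line, and each has 1 library at each of the same 12 passage numbers, from 1 to 19, so replicates are passages, and a p-value reflects how far these differ from each other. Poly(A) RNA was sequenced, and in such bulk libraries fewer cells of a kind and less RNA per cell cannot be told apart. The libraries held between 3.92 and 16.16 M reads, with the shallowest at passage 8 of the urea group, and medians of 10.3 M for urea, 11.9 M for NaCl, 10.1 M for raffinose and 10.2 M for control. The libraries of a group differed by more than counting noise, and each was counted as 1 replicate.

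Urea and NaCl are the main solutes of the inner medulla of the kidney, where collecting duct cells meet high and changing concentrations of both. Urea crosses most cell membranes, by itself and through urea transporters, and so raises osmolality with little lasting loss of cell water, while it can disturb proteins inside the cell. NaCl, and raffinose, a trisaccharide that cells take up poorly, stay largely outside and draw water out, which is the signal known to engage the tonicity-responsive transcription factor NFAT5 and its osmolyte genes. The solutes were compared at equal added osmolality. The window allows small differences, and some members were also called lower in NaCl or raffinose, as given further on. The genes carry Ensembl identifiers, and 0 of these could be paired with a symbol, so no member is given a name, a function or a sequence here, and the label of the cell line was not checked against marker genes.

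Of the 11296 non-mitochondrial genes with a control mean of at least 2 CPM, 757 had a urea to control ratio of at most 0.55, and the 222 members are 29.3% of those. Among the same 757 genes, 377 were under 0.67 of control in both NaCl and raffinose and 62 were over 1.5 in both. The opposite choice, with the urea ratio turned round and the other bounds kept, found 80 of 238 genes. The members' urea to control ratio had a median of 0.483 and ran from 0.113 to 0.55. It was at most 0.25 in 11 members, over 0.25 to 0.4 in 44, over 0.4 to 0.5 in 78 and over 0.5 in 89, so the set is densest next to its own bound. Just inside that bound, ENSCAFG00000014978 averaged 63.2 ± 8.50 CPM in urea and 115 ± 16.4 CPM in control libraries (SD, n = 12 each), and just outside it ENSCAFG00000004597 averaged 11.0 ± 1.83 CPM in urea and 20.03 ± 2.997 CPM in control libraries. The next on either side were ENSCAFG00000004029, with 5.37 ± 0.893 CPM in urea and 9.84 ± 1.74 CPM in control, and, outside, ENSCAFG00000006091, with 3.59 ± 2.496 CPM in urea and 6.59 ± 3.11 CPM in control.

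The membership of genes near the bounds depended on the scaling. With CPM over totals scaled by trimmed means of M values (TMM), which give each library a composition factor, 201 genes met the same bounds and 138 of them were members. The mean TMM factor was 1.03 in urea, 0.964 in NaCl, 0.925 in raffinose and 1.09 in control libraries. Of the 84 members that left, 55 had a urea ratio over 0.55 on the TMM scale, the highest at 0.582, and 27 left the window for NaCl or raffinose, 4 of these on both grounds. In 7 the control mean was under 2 CPM on that scale, which was the only ground for the members not in either count. With 1 passage left out of all groups at a time, 203 to 232 genes met the bounds, of which 192 to 214 were members, and 157 members stayed under every such omission and without the shallowest library. Leaving out passage 19 gave the lowest of these counts.

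**Figure D1:**
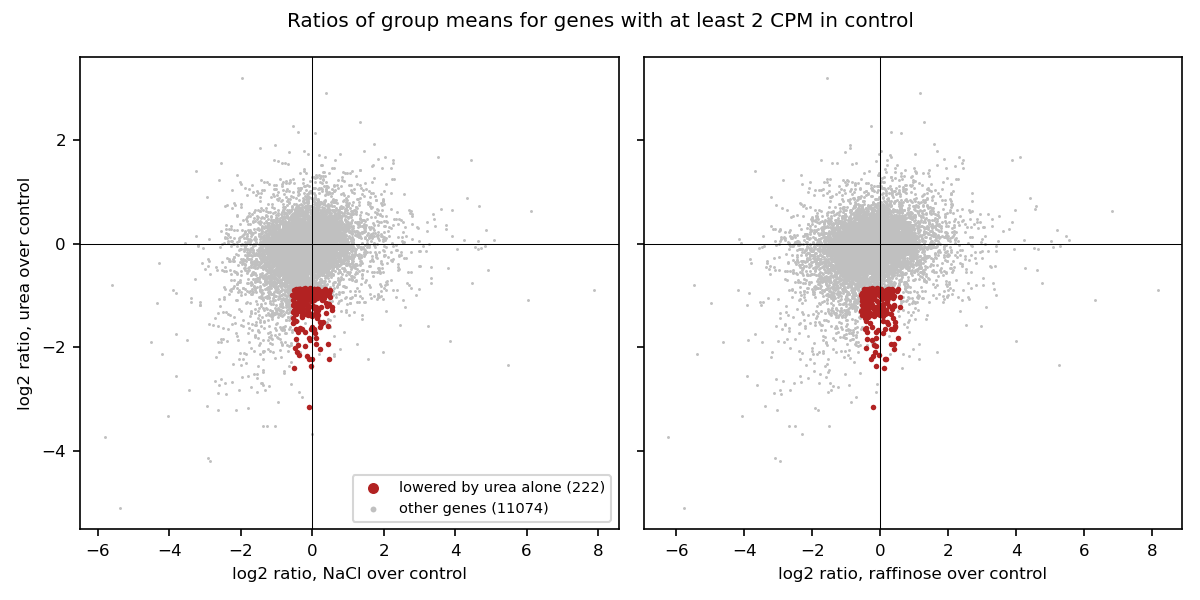
Each point is a gene with at least 2 CPM in control, at its log2 ratio of group means for urea over control (vertical axis) against NaCl over control (left) or raffinose over control (right). The 222 members, in red, fill the box cut by the bounds, below a urea ratio of 0.55 and within 0.67 to 1.5 of control for the other solutes.

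Together the members held 0.426 ± 0.043% of the reads of a library in urea, 0.91 ± 0.058% in NaCl, 0.934 ± 0.09% in raffinose and 0.985 ± 0.07% in control (SD, n = 12 each). The urea libraries ran from 0.355 to 0.505% and no other library was below 0.793%, so the urea group did not overlap the other 36 libraries. The control mean of a member, as reads collected, had a median of 12.2 CPM, and it was under 5 CPM in 56 members and at least 100 CPM in 28. Per kilobase of exon the median control level was 6.63 CPM in the members and 16.5 CPM in all 11296 genes with at least 2 CPM.

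**Figure D2:**
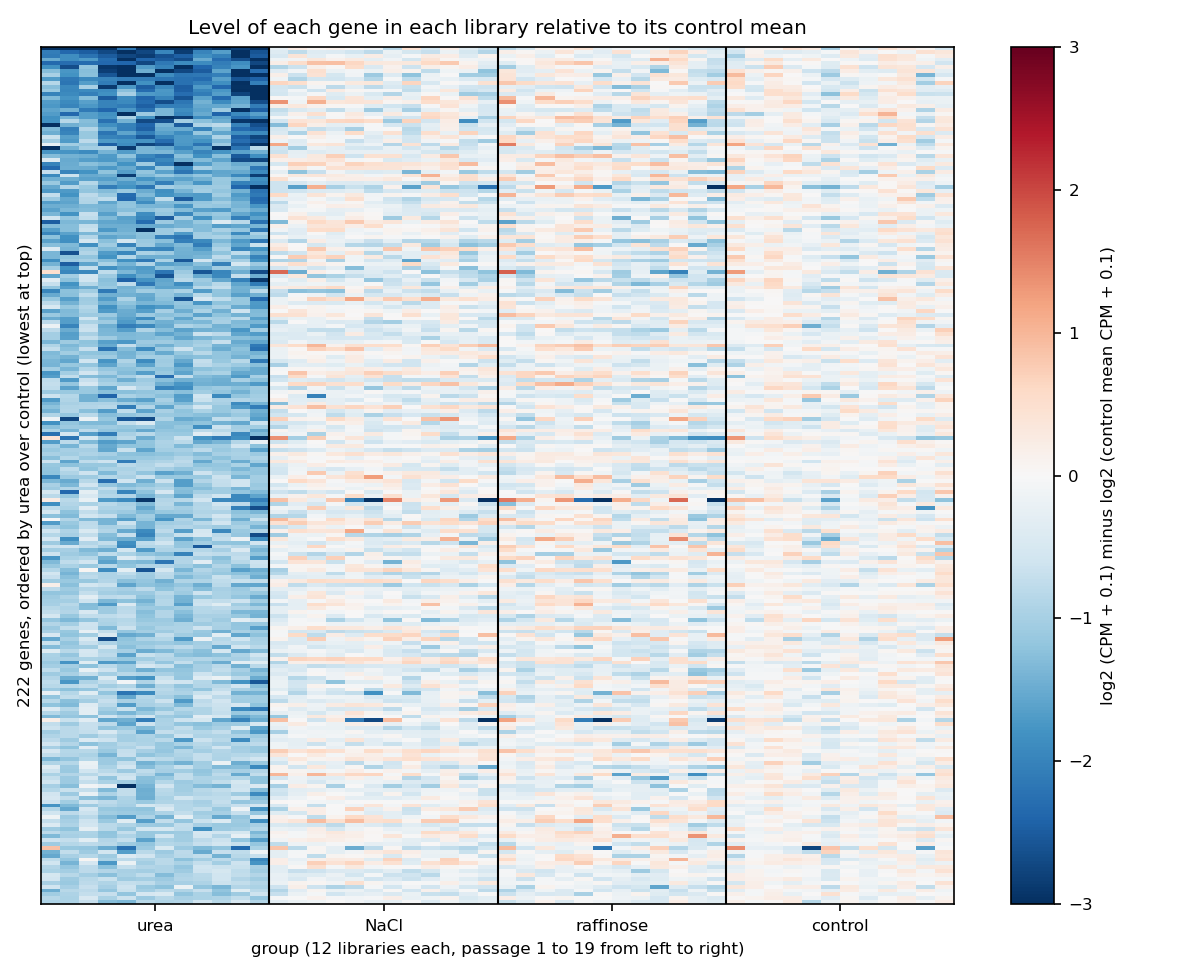
Rows are the 222 members, from the lowest urea to control ratio at the top, and columns are the 48 libraries in the groups urea, NaCl, raffinose and control, each from passage 1 to 19. Color gives log2 CPM relative to the member's control mean. The urea block is blue in nearly every row, and a few rows carry single dark cells in the NaCl and raffinose blocks.

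Among the 8 members with the lowest urea ratios, ENSCAFG00000010499 stood first. This gene of 20 exons (chromosome 5, 8435560 to 8536136, CanFam3.1) had 0, 0.208 and 0.511 CPM as lowest, median and highest value in urea libraries, against 1.46, 2.55 and 3.57 CPM in NaCl, 1.43, 2.24 and 3.49 CPM in raffinose and 1.30, 2.79 and 3.58 CPM in control libraries. The highest urea library was below the lowest of all others. Only 24 reads over the 12 urea libraries stand behind its value, against 335 reads in control libraries, and the log2 fold change of urea against control was -3.61 with a standard error of 0.23.

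ENSCAFG00000017937 (chromosome 30, 37793073 to 37800053, 7 exons) combined a low ratio with many reads. It had 50.6, 76.2 and 139 CPM in urea, 237, 305 and 392.0 CPM in NaCl, 342, 478 and 696 CPM in raffinose and 290, 430 and 603 CPM in control libraries (lowest, median, highest). All urea libraries lay below all others. It was the 1 member that edgeR called in opposite directions under the other solutes, with a log2 fold change of -0.33 for NaCl (adjusted p = 0.03) and 0.35 for raffinose (adjusted p = 0.0206).

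ENSCAFG00000012807 (chromosome 33, 29045973 to 29058757, 4 exons) had 8.43, 15.3 and 23.9 CPM in urea and 43.2, 83.8 and 118.9 CPM in control libraries, with medians of 82.8 CPM in NaCl and 73.9 CPM in raffinose. ENSCAFG00000031454 (chromosome 4, 60716337 to 60719695, 2 exons) had 5.52, 7.54 and 10.2 CPM in urea and 24.97, 38.4 and 45.6 CPM in control libraries. The median of ENSCAFG00000031454 was 50.1 CPM in NaCl and 42.6 CPM in raffinose, and its log2 fold change of NaCl against control was 0.64 ± 0.13 (SE). In both genes the urea libraries stood apart from the other 36.

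The other 4 of the 8 had fewer reads. ENSCAFG00000018666 (chromosome 4, 70391520 to 70574768, 25 exons) had 0.255, 0.593 and 1.15 CPM in urea and 2.33, 3.12 and 5.23 CPM in control libraries. ENSCAFG00000016521 (chromosome 20, 48543583 to 48548732, 10 exons) had 0.344, 1.103 and 2.28 CPM in urea and 3.39, 4.64 and 9.09 CPM in control libraries. These groups did not overlap. ENSCAFG00000003344 (chromosome 11, 68617385 to 68699997, 13 exons) had 0, 0.315 and 0.793 CPM in urea and 1.16, 2.25 and 2.82 CPM in control libraries, again without overlap, though its lowest raffinose library, at 0.765 CPM, was below the highest urea library. ENSCAFG00000009786 (chromosome 17, 53585088 to 53605693, 6 exons) had 0.603, 3.58 and 8.22 CPM in urea and 6.11, 15.7 and 31.3 CPM in control libraries, and here the groups overlapped, although urea was below control at all 12 passages.

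**Figure D3:**
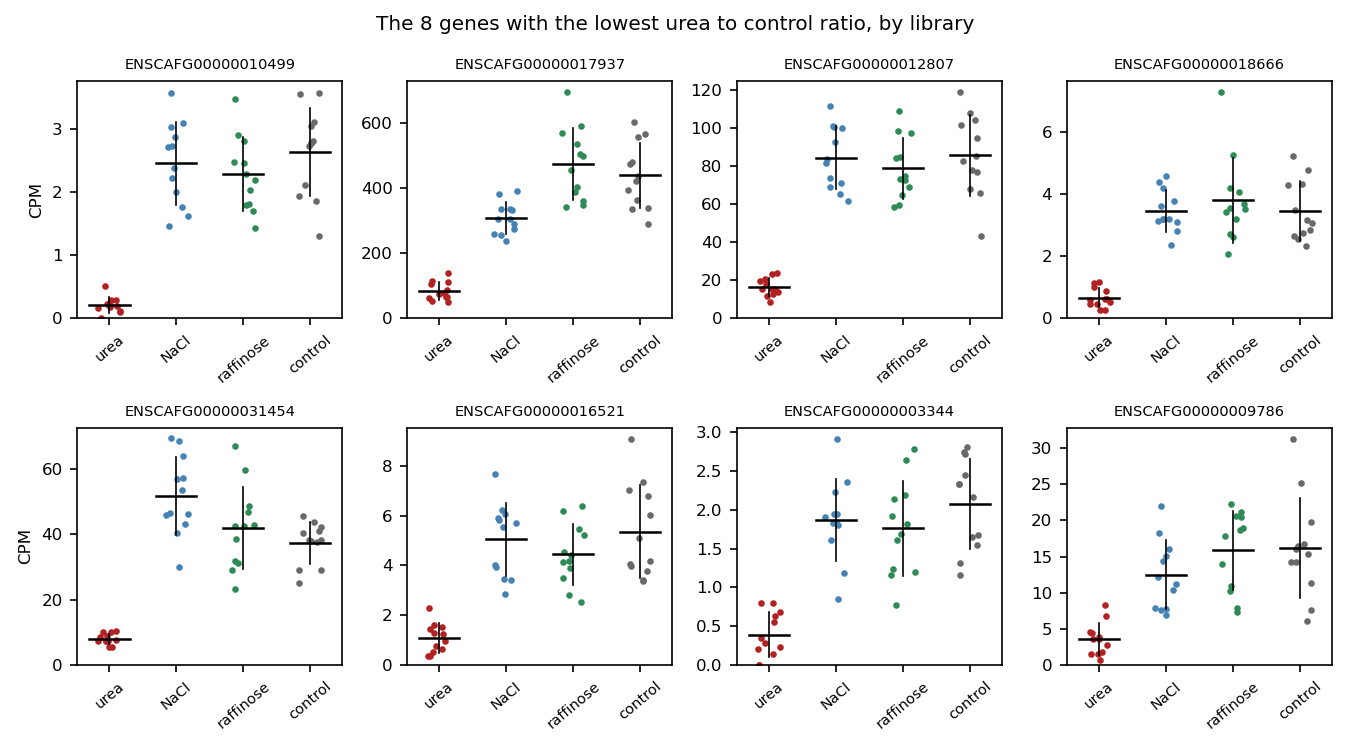
CPM of the 8 members with the lowest urea to control ratio, 1 point per library, in urea, NaCl, raffinose and control from left to right. Horizontal bars are group means and vertical lines 1 SD (n = 12). Only ENSCAFG00000009786 has urea libraries within the control range.

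The 4 members with the most control reads were ENSCAFG00000017937 and another 3. ENSCAFG00000018629 (chromosome 9, 41869504 to 41889263) had 94.9, 133 and 186 CPM in urea and 389, 556 and 829 CPM in control libraries, with medians of 423 CPM in NaCl and 470 CPM in raffinose. ENSCAFG00000005433 (chromosome 22, 45765368 to 46013484, 31 exons) had 111, 137 and 182 CPM in urea and 327, 391 and 463 CPM in control libraries. In ENSCAFG00000005433 the other solutes lay on the far side of control, with medians of 452 CPM in NaCl and 545 CPM in raffinose, log2 fold changes of 0.41 and 0.68 against control.

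ENSCAFG00000032583 (chromosome 27, 3856116 to 3866407, 2 exons) had 205, 240 and 306 CPM in urea and 309, 461 and 668 CPM in control libraries. Its raffinose libraries, at 202, 328 and 416 CPM, overlapped those of urea, and its raffinose to control ratio of 0.688 was near the lower bound. Per kilobase of exon the control level was 128 CPM for ENSCAFG00000017937, 105 CPM for ENSCAFG00000018629, 101 CPM for ENSCAFG00000032583 and 69.1 CPM for ENSCAFG00000005433.

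Read against control with edgeR's quasi-likelihood test, 219 of the 222 members were called lower in urea at an adjusted p under 0.05, where 24.9% of the 12654 tested genes were called lower, and the choice of members used this contrast. The median log2 fold change was -0.99 in the members and 0.02 over all tested genes. In 117 members all 12 urea libraries lay below all 12 control libraries, as in 6.33% of the genes with at least 2 CPM. In 57 members urea lay below all 36 other libraries, as in 1.34% of those genes. On TMM-scaled log2 CPM, urea was below control at the same passage in 2641 of 2664 pairs of member and passage. It was so at all 12 passages in 201 members, at 11 in 19, and at 10 in ENSCAFG00000013251 and ENSCAFG00000008467. The choice used the group means over these same passages, so the counts by passage largely follow from it. The share over all genes was not computed for them.

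The 3 members that were not called in this fit, which leaves out the pairing by passage, are named after their values were seen. Their biological coefficients of variation of 73.6%, 61.7% and 52.9% compare with a median of 19.7% over the members. With the passage number as a block, all 222 members were called lower in urea than in control, where 29% of tested genes were called lower. ENSCAFG00000007338 (chromosome 27, 2947619 to 2955829) averaged 91.7 ± 57.7 CPM in urea, 224 ± 164 CPM in NaCl, 282 ± 210 CPM in raffinose and 188 ± 98.6 CPM in control libraries, and its log2 fold change of urea against control was -0.95 (edgeR adjusted p = 0.0748). ENSCAFG00000012339 (chromosome 7, 10782154 to 10796616) averaged 85.8 ± 43.5 CPM in urea, 149 ± 98.7 CPM in NaCl, 167 ± 114 CPM in raffinose and 163 ± 57.1 CPM in control libraries (log2 fold change -0.84, edgeR adjusted p = 0.0564). Both were below control in urea at all 12 passages, and in both the lowest libraries of the NaCl and raffinose groups were those of passages 8, 10 and 19.

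At passage 10, ENSCAFG00000007338 had 24.7 CPM in urea, 21.4 CPM in NaCl and 15.9 CPM in raffinose, against 61.5 CPM in control, and ENSCAFG00000012339 had 38.4, 24.5 and 18.5 CPM under the same solutes, against 100.6 CPM. At passage 16, ENSCAFG00000007338 had 48.9 CPM in urea, 461 CPM in NaCl and 626 CPM in raffinose, against 113 CPM in control, and ENSCAFG00000012339 had 55.6, 218 and 283 CPM, against 85.0 CPM. In these 2 genes NaCl and raffinose thus lay below control at some passages and above it at others, and the ratios of group means average over both. Those ratios were 1.19 for NaCl and 1.498, next to the upper bound, for raffinose in ENSCAFG00000007338, and 0.914 and 1.025 in ENSCAFG00000012339. The third was ENSCAFG00000008467 (chromosome 3, 23417821 to 23808380), with 0.473, 1.195 and 5.19 CPM in urea and 0.329, 2.30 and 7.48 CPM in control libraries (log2 fold change -0.75, edgeR adjusted p = 0.0571).

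Against the other solutes, 221 members were called lower in urea than in NaCl (35.7% of tested genes called lower) and 222 lower in urea than in raffinose (37.6%). These contrasts follow from the ratios that chose the members. The median log2 fold change of the members was -1.1 against NaCl and -1.18 against raffinose. The gene not called against NaCl was ENSCAFG00000008467. With the passage number as a block it was called as well, where 38.5% of tested genes were called lower.

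Differences of NaCl and raffinose from control remained within the window. By the ratios that chose the members, the median was 0.91 for NaCl and 0.913 for raffinose. Both ratios were below 1 in 122 members and above 1 in 59, and both lay within 0.9 to 1.1 in 30. After TMM scaling, edgeR called 51 members higher in NaCl than in control (34.6% of tested genes called higher) and 19 lower (36.1% called lower). In raffinose 63 were higher (36.7%) and 14 lower (38.2%). Under both solutes 38 members were higher, 6 were lower and 120 were called in neither direction, and the window that chose the members limits these counts. The 120 members called in neither direction belong to this fit, which leaves out the pairing by passage. With the passage number as a block the members called lower came to 41 in NaCl (39.2% of tested genes) and 25 in raffinose (40.8%). Those called higher came to 57 in NaCl (37.3%) and 77 in raffinose (38.8%), so more members were called under each solute. Without the block and without passage 4, those lower in raffinose came to 9 (37.5%). The direction of these differences rests on the scaling: the median log2 fold change of the members was 0.04 in NaCl and 0.09 in raffinose with TMM factors, and -0.14 in each with library totals only. The same change of scaling moved the median of all tested genes to -0.19 in NaCl and -0.25 in raffinose. With totals only, 19 members were called higher and 74 lower in NaCl, where 25.3% and 48.1% of all tested genes were called. In raffinose 29 were called higher and 70 lower, where 26% and 51.8% of all tested genes were called. The urea contrast was less affected, at a median of -1.06 in the members and -0.05 over all tested genes.

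ENSCAFG00000001159 and ENSCAFG00000012703 were the 2 members called more than 1.5-fold higher in raffinose by edgeR's test against a minimum fold, as were 16.2% of tested genes. ENSCAFG00000001159 (chromosome 13, 30649911 to 30841312, 17 exons) had 6.53, 7.61 and 10.4 CPM in urea, 15.8, 20.5 and 24.8 CPM in NaCl, 17.0, 20.5 and 26.8 CPM in raffinose and 11.9, 14.8 and 17.9 CPM in control libraries. ENSCAFG00000012703 (chromosome 26, 23542659 to 23562724, 13 exons) had medians of 2.57 CPM in urea, 9.15 CPM in NaCl, 10.1 CPM in raffinose and 6.11 CPM in control libraries. In both genes, on TMM-scaled log2 CPM, NaCl and raffinose were above control and urea below it at all 12 passages.

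Whether the members moved together between replicate cultures was not part of the choice. At each passage the median log2 difference of urea from control over the members lay between -0.85, at passage 1, and -1.36, at passage 19, and the other 10 passages ran from -0.94 to -1.16. The median of NaCl minus control over the members ran from -0.22 at passage 19 to 0.21 at passage 8, and that of raffinose minus control from -0.17 at passage 19 to 0.36 at passage 8. These differences share their control library at each passage. The control library of passage 10 was the lowest of its group, with the members 0.26 below their group mean on the log2 scale at the median.

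**Figure D4:**
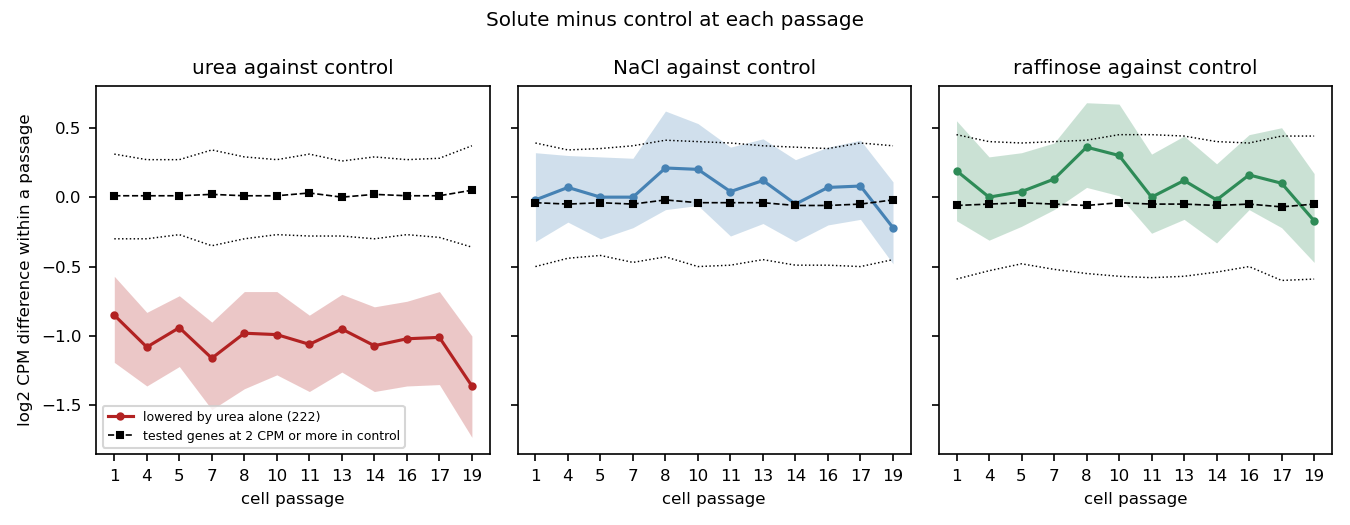
Log2 CPM difference from the control library of the same passage for urea, NaCl and raffinose, with the members' median as a colored line and their quartiles as a band. Black squares are the median and dotted lines the quartiles of the tested genes with at least 2 CPM. The members' urea line stays between -0.85 and -1.36 and their NaCl and raffinose lines stay within 0.36 of 0.

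With group means removed, the members' log2 levels were positively correlated across the 48 libraries, at a mean of 0.107 over pairs of members. To set this beside genes read at like depth, the 110 members with a control mean between 4.83 and 44.5 CPM, the quartiles of the set, were compared with 5208 other genes in that range. The mean correlation was 0.127 among these members and 0.0085 among the other genes. Over the 12 libraries of one group it was 0.155 in urea, 0.0637 in NaCl, 0.13 in raffinose and 0.147 in control, and it was 0.104 with passage means removed as well. These are descriptions without a test, since members share libraries, depth and the choice by group means. The spread between replicates was somewhat wider in the members, with a median biological coefficient of variation of 18% against 15.3% among the other genes of that range.

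Over passages, edgeR called 28 members lower with passage number (8.2% of tested genes called lower) and 4 higher (7.99% called higher). Thus 12.6% of the members were called lower and 1.80% higher, and within the middle range of reads the shares were 12.7% and 1.82% of the members, against 7.78% and 9.22% of the other genes. The median slope was -0.048 log2 units per 10 passages in the members and 0.0027 over all tested genes. Without passage 1 the median slope of the members was -0.035, and fewer genes were called lower: 3.97% of all tested genes and 13 members (5.86%). Without passages 1 and 19 there were 5 (2.25%), below the 3.15% of all tested genes, so the members' larger share did not hold there. Without passage 16 there were 51 (23%, with 11.1% of all tested genes) and without passage 17 there were 18 (8.11%, with 7%). Those called higher came to 7 without passage 5 (3.15%, with 4.91% of all tested genes). This fit takes the 4 libraries of a passage as independent. With their counts summed, 1 member was called lower and 0 higher, among 2 genes lower and 6 higher in all. Over single libraries DESeq2 called 30 members lower, with 8.51% of all tested genes, and 5 higher, with 8.73%.

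The member called with summed counts was ENSCAFG00000015233 (chromosome 3, 64230065 to 64362347, 26 exons). In the fit over single libraries its slope was -1.30 ± 0.14 (SE) log2 units per 10 passages. That SE takes the 4 libraries of a passage as independent and so may be too small. At passage 1 it had 15.1 CPM in urea, 29.7 CPM in NaCl, 25.5 CPM in raffinose and 28.7 CPM in control. At passage 19 it had 0.431 CPM in urea, 3.40 CPM in NaCl, 3.04 CPM in raffinose and 5.17 CPM in control. The values did not decline steadily in between. Passage 4 had 2.40 CPM in urea and 7.38 CPM in control, and passage 13 had 7.22 CPM in urea and 11.1 CPM in control. Urea was below control at all 12 passages.

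ENSCAFG00000013180 (chromosome 38, 20009666 to 20152544, 18 exons) had the next steepest slope over single libraries, at -1.11 ± 0.17 (SE). At passage 1 it had 9.52 CPM in urea and 16.4 CPM in control, while the highest later values were 3.90 CPM in urea and 9.05 CPM in control. Without passage 1 its slope was -0.41 and was no longer called (edgeR adjusted p = 0.137). The steepest slopes in the other direction were 0.46 for ENSCAFG00000023386 (chromosome 20, 52613314 to 52614159, 2 exons) and 0.38 for ENSCAFG00000002879 (chromosome 12, 43326837 to 43476431, 10 exons). ENSCAFG00000023386 had 0.874, 1.44 and 2.56 CPM in urea and 1.81, 2.86 and 5.73 CPM in control libraries over all passages, and these groups overlapped. The other 2 members called higher with passage were ENSCAFG00000030037 and ENSCAFG00000014577.

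**Figure D5:**
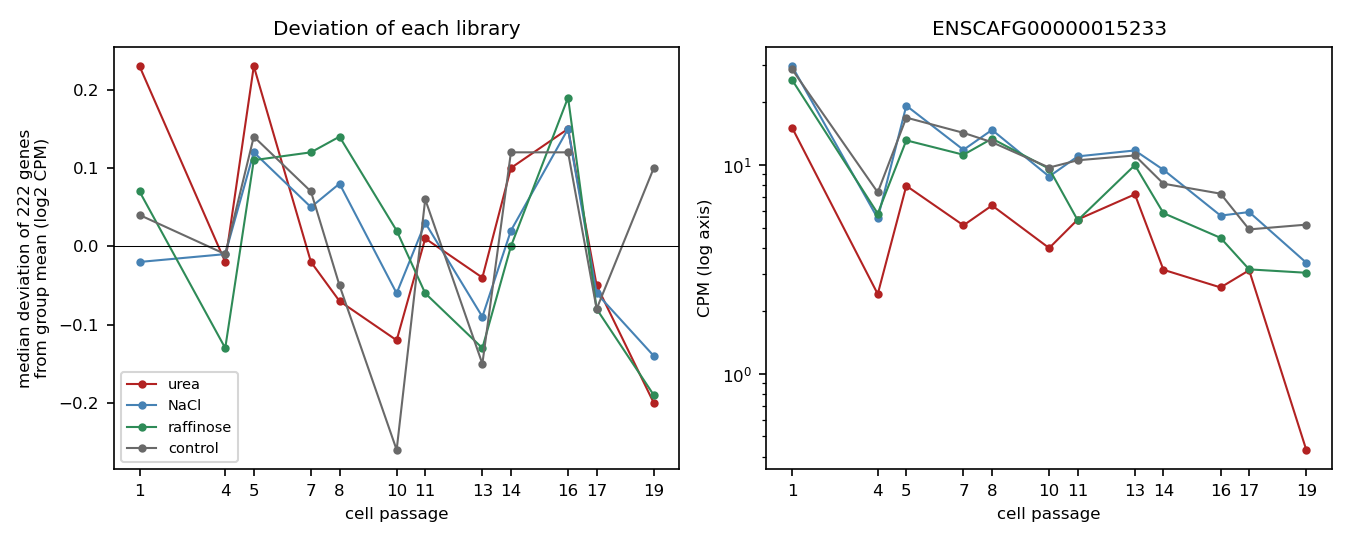
Left, median deviation of the 222 members from their group mean in each library (log2 CPM) by cell passage, with 1 line per group. Right, CPM of ENSCAFG00000015233 in the same libraries on a log axis, highest at passage 1 in every group. In the left panel passage 16 lies above 0 and passage 17 below 0 in all 4 groups.

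No member passed the test for a change with passage of the difference between urea and control. By edgeR's quasi-likelihood test 0 members and 0% of all tested genes had an adjusted p under 0.05, and DESeq2 also called 0 members. As no tested gene was called, this does not show that the members' difference was constant over passages. An unadjusted p under 0.05 was found in 12 members (5.41%) and in 345 tested genes (2.73%). The term was below 0 in 157 of the 222 members and in 6492 of the 12654 tested genes. For the members this is towards a larger difference at later passages. The median term was -0.13 log2 units per 10 passages in the members and -0.0052 over all tested genes. Without passages 1 and 19 the term was below 0 in 106 members. The median was then 0.015 in the members and 0.013 over all tested genes, so the leaning rests on the first and last passages.

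In structure the members were much like other genes read at 2 CPM or more in control. The median exonic length was 2302 bases in the members and 2393 bases in the 11296 genes, and the median number of exons was 9 in both. The median span on the genome was 15220 bases in the members and 21450 bases in all, while 16.2% of the members and 12.3% of all spanned over 100 kb. Single-exon genes made up 5.41% of the members and 5.36% of all. Exons of 25 members (11.3%) overlapped those of another gene, as did 11.5% of all, and reads there cannot be assigned with certainty.

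The members lay on 38 of the 39 placed chromosomes, and 2 were on unplaced scaffolds. The share of genes with at least 2 CPM that were members was 1.97% over the genome. It was highest on chromosome 35, with 6 of 111 genes (5.41%), and on chromosome 27, with 11 of 268 (4.1%), and chromosome 20 held the most members, 18 of 588. Chromosome 15 held 2 of 307.

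In all, 8 pairs of members were next to each other among the genes with at least 2 CPM, 5 of them on the same strand and 0 with overlapping exons. The nearest pair without overlapping spans was ENSCAFG00000016569 and ENSCAFG00000030956 on chromosome 2, 2453 bases apart on the same strand, within 84457906 to 84473055. ENSCAFG00000016569, whose exons overlap another gene, averaged 1.45 ± 0.655 CPM in urea and 3.02 ± 1.06 CPM in control libraries. ENSCAFG00000030956 averaged 1.52 ± 0.913 CPM in urea and 3.48 ± 1.30 CPM in control libraries (SD, n = 12 each). In both genes the 12 urea libraries overlapped the control range.

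In another 2 pairs the genes lay close together and at least 1 of them had more reads. On chromosome 37, ENSCAFG00000015687 averaged 21.2 ± 2.70 CPM in urea and 38.9 ± 6.60 CPM in control libraries, and ENSCAFG00000015723, 14077 bases further on, averaged 23.7 ± 5.30 CPM in urea and 49 ± 9.9 CPM in control libraries. On chromosome 16, ENSCAFG00000033457 averaged 1.33 ± 0.50 CPM in urea and 3.24 ± 0.879 CPM in control libraries, and ENSCAFG00000006759, 13909 bases away, averaged 15.9 ± 4.62 CPM in urea and 29.4 ± 5.98 CPM in control libraries. ENSCAFG00000006759 was also above control in NaCl, at 41.6 ± 9.83 CPM. Urea libraries lay wholly below control in both genes of the chromosome 37 pair and in neither of the chromosome 16 pair.

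On chromosome 10 the urea to control ratios of a pair were 0.245 and 0.413, where ENSCAFG00000001516 had 2.55, 5.80 and 13.7 CPM in urea and 12.2, 23.6 and 39.1 CPM in control libraries, and ENSCAFG00000001526, 202404 bases away on the same strand, had 3.79, 4.41 and 7.04 CPM in urea and 9.14, 11.4 and 15.6 CPM in control libraries. On chromosome 6, ENSCAFG00000020195 had 39.6, 44.02 and 52.4 CPM in urea and 78.7, 93.2 and 122 CPM in control libraries, and ENSCAFG00000024246, a gene of 1 exon, had 4.74, 8.30 and 10.9 CPM in urea and 14.96, 22.1 and 30.3 CPM in control libraries. The urea libraries of both chromosome 6 genes stood below all 36 others. The remaining pairs were ENSCAFG00000001264 with ENSCAFG00000001289 on chromosome 13, ENSCAFG00000003067 with ENSCAFG00000036462 on chromosome 14, and ENSCAFG00000039459 with ENSCAFG00000012301 on chromosome 16.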

How the data were processed

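The authors deposited 1 table of raw read counts for 32704 genes in 48 libraries. The submitters' processing notes name CASAVA, HISAT2 2.0.5 and featureCounts 1.5.1. Counting ran over exons, was summed by gene and ignored strand, per the file headers, with Ensembl release 87 of CanFam3.1, so reads of overlapping antisense genes are not separated. Exon coordinates and exonic length, in bases, come from the same deposited table. The table held 0 summary or blank rows, and all columns of counts were used. In the columns of passage 10 the name has an extra number that is not explained in the sources used here.

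Printed CPM values are counts over the library's column total. Fold changes come from edgeR 4.0.16 in R 4.3.3: filterByExpr kept 12654 genes, among them all 222 members, and TMM factors, glmQLFit over all 48 libraries and glmQLFTest with Benjamini-Hochberg adjustment over all tested genes followed, with a threshold of 0.05. They are thus on another scale than the ratios that chose the members. Standard errors (SE) are approximate: each is the absolute log2 fold change or slope over the square root of the F statistic of its test. Passage was tested as a linear term per 10 passages beside the group, and the urea by passage term with centred passage. Log2 CPM for correlations used a prior count of 2. The scripts were tested on simulated data in which libraries were drawn independently, without an effect shared by the libraries of a passage. The simulation therefore cannot check false calls of the passage trend in the real data. It required no minimum recovery for the urea by passage term.

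Genes were named by a rule: the 8 lowest ratios, the 4 highest control means, adjacent members, the nearest to the bound, and the 2 steepest slopes each way; others are said to be chosen after their values were seen or fall in a count of 5 or fewer. The members and lists were chosen with earlier results of these data known. Prepared gene lists by symbol were not applied. Passage numbers pair the libraries, since each passage label occurs once in every group. Same-passage pairs of libraries had a mean correlation of 0.31 (66 of 72 over 0.1). The 792 pairs of libraries from different groups at different passages had a mean of -0.028. With group means removed, deviations cancel over the passages of a group. The second mean therefore largely follows from the first and is no independent background. Alternatives were RLE size factors, library totals only, other filters, DESeq2 1.42.0, a replicate block, a minimum fold of 1.5, only the groups compared, and leaving out passages in turn.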

Additional observations from a re-analysis of the deposited data

How the results depend on the processing

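The counts of members lower in urea than in control, NaCl and raffinose stayed within 1.5 times their values under the alternatives run for them. These alternatives did not include the minimum fold of 1.5. The members were held fixed and had been chosen on these contrasts in the same libraries, so such counts could hardly change and test nothing. The members called for a change of the urea difference with passage stayed at 0. With each passage left out, members lower in urea than in control numbered 219 to 221. Requiring a minimum fold of 1.5 left 0 members higher and 0 lower in NaCl, and 2 higher and 0 lower in raffinose. With library totals only, 19 were higher and 74 lower in NaCl, and 29 higher and 70 lower in raffinose. With the replicate block on passage, 41 were lower in NaCl and 25 in raffinose, and 57 and 77 were higher. Beyond the counts of lower members, the block moved no count by over 1.5 times. Leaving out 1 passage gave 9 (without passage 4) to 16 lower in raffinose. The trend with passage was the least stable result: 13 (without passage 1) to 51 (without passage 16) members were called lower, with 18 without passage 17, and 4 to 7 higher (7 without passage 5). With counts summed over a passage 1 was lower and 0 higher. Without passages 1 and 19 there were 5 lower (2.25%), below the 3.15% of all tested genes. With a mean of at least 5 CPM there were 2 higher of 157 members tested. The mean correlation of members ran from 0.097 to 0.115 with 1 passage left out. Of the values of named genes under alternatives, 668 kept their direction and side of the threshold, 18 kept their direction but lost the call and 0 reversed. These 18 belong to the gene outside the bound, ENSCAFG00000006091, and to the slopes of ENSCAFG00000013180, ENSCAFG00000023386 and ENSCAFG00000002879. The alternatives on the correlation and on overlapping exons were chosen after seeing the data. Other causes were not tested. Members with few reads in urea, such as 24 over 12 libraries, limit the precision of the lowest ratios, and reads carry no molecular identifiers, so such limits cover counting error only.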
